A study of Mus musculus with 4 samples.

Results

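The genes described here are the collagen hydroxylases, the lysyl oxidases and the collagen chaperone, which modify collagen chains, help them fold and cross-link the finished fibres. They were chosen by name: 10 genes were listed, and a gene was measured where the platform annotation paired a probe set (a group of array probes for 1 transcript) with its symbol alone. That left 9 of the 18193 genes measured, with 16 probe sets. The probe set with the highest mean signal over the arrays represented each gene, and the others checked it. The gene not measured by this rule was Loxl2, a lysyl oxidase gene whose probe sets are annotated with a further, predicted gene as well.

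RNA was compared between 2 VEGFD arrays and 2 Apex arrays, labelled as mouse endothelial cells of collecting lymphatic vessels. In both groups human 293EBNA cells, a line of embryonic kidney origin, were grown in the flank of mice to tumours of 2000 mm3. The cells carried the Apex vector with VEGFD in the VEGFD group, and the Apex vector without an insert in the Apex group. Vascular endothelial growth factor D (VEGF-D) is a secreted protein whose receptors sit on lymphatic and blood vessel endothelium. Vessels were found by a blue dye put into the tumour, dissected, and their endothelial cells taken by magnetic sorting, by a marker not given in the sources used here, which also do not give mouse strain, age or sex, nor the number of mice behind an array. The protocol for RNA extraction speaks of lymph node endothelium instead.

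Newly made collagen chains are hydroxylated on proline and lysine in the endoplasmic reticulum, by enzymes that need oxygen, iron, 2-oxoglutarate and ascorbate. Hydroxyproline keeps the triple helix stable, and hydroxylysine carries sugars and shapes later cross-links. The chaperone HSP47 binds the folded triple helix until it leaves that compartment. Outside the cell, copper-dependent lysyl oxidases convert lysine side chains to aldehydes, which then join neighbouring collagen or elastin molecules. Several of these genes, among them P4ha1, P4ha2, Plod2 and Lox, are known targets of the hypoxia-inducible factors (HIFs), which bind DNA at the core letters ACGTG or GCGTG. Collagen and its modifying enzymes are made mainly by fibroblasts and mural cells, and endothelium makes basement membrane collagen.

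Windows from 250 bases before to 50 bases after the annotated start were used for 5 of the genes (P4ha1, P4ha2, Plod1, Plod3 and Serpinh1), from RefSeq on build GRCm38.p6. The search left out 1 chromosome for the genes of the set and the hypoxia genes, but not for all windows. No window was used for Lox, Loxl1, Loxl3 or Plod2. Those of the prolyl hydroxylase genes are shown because both had less signal on the second VEGFD array than on the first. The same held for most hypoxia genes, for 52.6% of all tested genes and for Plod1, whose window is not shown. The P4ha1 window is chr10:59323046-59323345 on the plus strand, and the P4ha2 window is chr11:54100674-54100973 on the plus strand. Capitals mark every ACGTG or GCGTG on either strand, so that CACGT and CACGC are the same letters read on the other strand.
P4ha1: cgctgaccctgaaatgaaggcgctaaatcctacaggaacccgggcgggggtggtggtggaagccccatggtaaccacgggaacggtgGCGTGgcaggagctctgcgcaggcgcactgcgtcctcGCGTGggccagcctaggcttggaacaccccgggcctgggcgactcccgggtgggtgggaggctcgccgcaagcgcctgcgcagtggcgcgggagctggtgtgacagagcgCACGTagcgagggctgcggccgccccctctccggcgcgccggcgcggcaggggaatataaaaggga
P4ha2: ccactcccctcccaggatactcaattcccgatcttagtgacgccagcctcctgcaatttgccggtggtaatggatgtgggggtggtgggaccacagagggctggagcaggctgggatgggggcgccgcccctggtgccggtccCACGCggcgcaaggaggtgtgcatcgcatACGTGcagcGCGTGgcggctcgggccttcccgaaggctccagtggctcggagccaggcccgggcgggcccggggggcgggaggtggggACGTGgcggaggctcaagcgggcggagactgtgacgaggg
P4ha1 held 3 matches and P4ha2 held 4, none overlapping, and the other windows held 4 (Plod3), 2 (Plod1) and 1 (Serpinh1). At least 1 match was found in all 5 windows, against 43.8% of all 32841 mouse windows of this length, and 3 or more matches in 3 of the 5, against 8.93% of all windows. Of 25 windows of the hypoxia genes, 88% held at least 1 match and 24% held 3 or more. The windows were not matched for base composition. A match describes letters and does not show that a factor binds there.

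All values below are linear signal intensity per probe set, and log2 changes are VEGFD minus Apex of log2(signal + 16), given ± the limma standard error (SE) with n = 2 and 2. The 9 genes all passed the filter on dim genes, a mean equivalent to a signal of 25.3, and lay above that signal on every array. None passed an adjusted p of 0.05 in limma with Benjamini-Hochberg adjustment over 11677 tested genes, where 0% of genes passed. At an unadjusted p under 0.05 there were 0 of the 9 genes, against 5.7% of all tested genes. The estimates of 7 genes were above 0, against 46.4% of all tested genes, and the median of the 9 was 0.33, against -0.04 over all tested genes.

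The clearest separation was in the lysyl oxidases Lox and Loxl1 and the lysyl hydroxylase Plod3, whose VEGFD values both lay above both Apex values. That is 3 of 9 genes, and 16.6% of all tested genes lay apart in that direction. No gene of the set lay apart in the lower direction, against 21.8% of all tested genes, so that in either direction it was 3 of 9 genes against 38.5%. With each array centred on its median, the median change of all tested genes moved by 0.12 and the split of separated genes from 1941 higher and 2549 lower to 2852 higher and 1713 lower, and Plod1 then also lay apart.

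Among the cross-linking enzymes, Lox encodes the founding lysyl oxidase. Its probe set 1416121_at had signals of 8924 and 8478 in VEGFD replicates 1 and 2, against 6374 and 7466 in Apex replicates 1 and 2. Both VEGFD arrays were higher, with a fold of 1.26 and a log2 change of 0.33 ± 0.20 (95% interval -0.17 to 0.83, limma adjusted p = 0.826). A second bright probe set, 1448228_at, had 8601 and 7371 in VEGFD arrays, against 5479 and 5899 in Apex arrays, a log2 change of 0.48. The third, 1437903_at, was dim and ran the other way, with 87.7 and 81.3 in VEGFD arrays and 118 and 97.4 in Apex arrays.

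Loxl1 encodes a lysyl oxidase best known for elastic fibres in mice. Probe set 1451978_at had 2707 and 2583 in VEGFD arrays, against 2010 and 1777 in Apex arrays. The groups did not overlap, and the spread within each group was small beside the gap between them, with a fold of 1.40 and a log2 change of 0.48 ± 0.20 (95% interval -0.03 to 0.99, limma adjusted p = 0.823). Its other probe set, 1436063_at, was dimmer, with a log2 change of 0.40, and also had no overlap, at 134 and 162 in VEGFD arrays against 131 and 89.0 in Apex arrays. When 1 array was left out at a time, the log2 change of Loxl1 stayed between 0.39 and 0.57 and that of Lox between 0.22 and 0.45.

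Loxl3 encodes a lysyl oxidase with scavenger receptor domains. Its single probe set, 1418269_at, had 1274 and 2969 in VEGFD arrays, against 1324 and 1365 in Apex arrays. One VEGFD array was 2.33 times the other, while the first VEGFD array lay below both Apex arrays. The log2 change of 0.53 ± 0.42 (limma adjusted p = 0.832) rested on VEGFD replicate 2: leaving that array out gave -0.08, and leaving out the first VEGFD array gave 1.13.

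**Figure D1:**
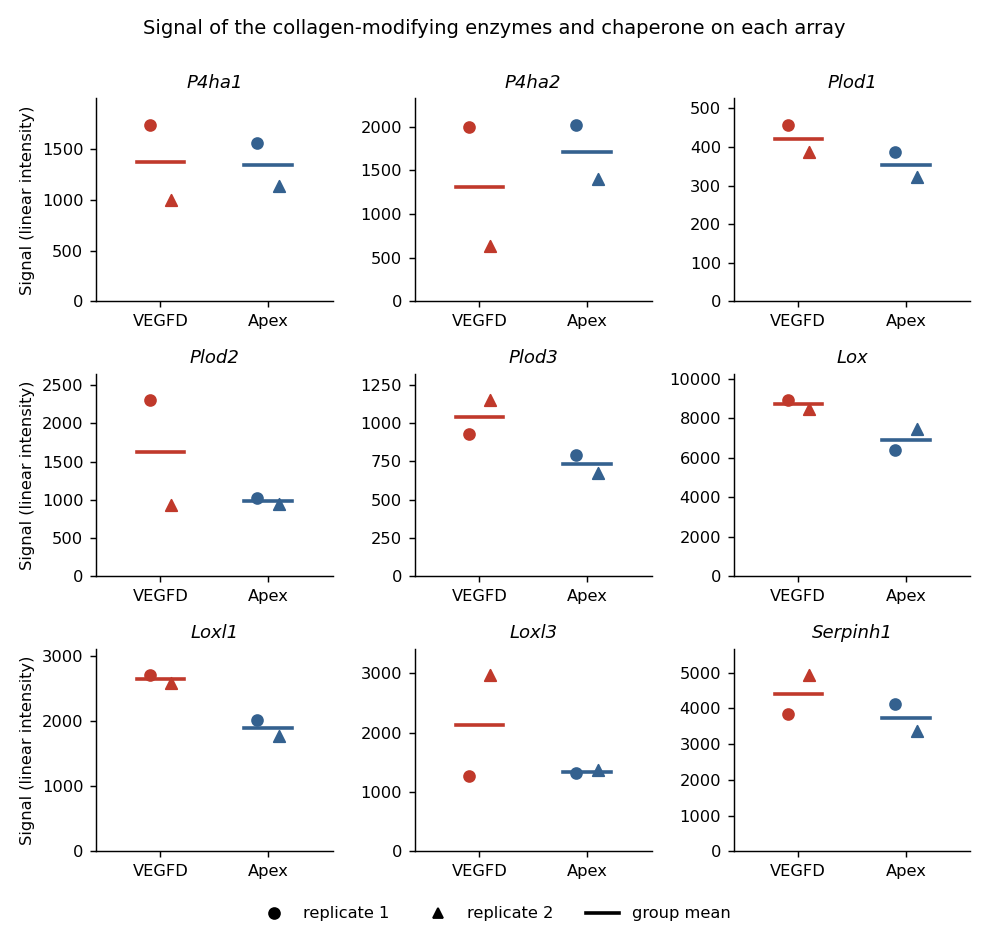
Linear signal (intensity, axes from 0) of the representing probe set of each gene on the VEGFD and Apex arrays, with circles for replicate 1, triangles for replicate 2 and a bar for the group mean. Lox, Loxl1 and Plod3 show no overlap between groups, whereas the VEGFD arrays of P4ha2, Plod2 and Loxl3 lie more than 2-fold apart.

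The lysyl hydroxylases gave a different picture for each gene. Plod3 encodes an enzyme that also transfers sugars to hydroxylysine, and its probe set 1415901_at had 924 and 1149 in VEGFD arrays, against 794 and 676 in Apex arrays. Both VEGFD arrays were higher, with a fold of 1.40 and a log2 change of 0.48 ± 0.24 (95% interval -0.11 to 1.08, limma adjusted p = 0.823), and 0.33 to 0.64 with 1 array left out. Plod1, which acts on lysines of the triple helix, had 457 and 386 in VEGFD arrays, against 386 and 321 in Apex arrays (1416289_at). The lower VEGFD value and the higher Apex value nearly coincided, and the log2 change was 0.24 ± 0.24 (limma adjusted p = 0.846). Omitting Apex replicate 2 gave 0.12, VEGFD replicate 1 gave 0.13 and Apex replicate 1 gave 0.37. A dim second Plod1 probe set had a log2 change of -0.34, and the mean of both probe sets gave -0.05.

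Plod2 encodes the lysyl hydroxylase that acts on the chain ends and so favours hydroxylysine-based cross-links. Its probe set 1416687_at had 2303 and 936 in VEGFD arrays, against 1027 and 942 in Apex arrays. A single array, VEGFD replicate 1, was high, and the other 3 lay close together. In the other probe set, 1416686_at, VEGFD replicate 1 was again the highest array, with 1170 and 532 in VEGFD arrays, against 585 and 489 in Apex arrays. The log2 change of 0.57 ± 0.44 (95% interval -0.55 to 1.69, limma adjusted p = 0.832) was 1.21 with the second VEGFD array left out and -0.07 with the first left out.

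The prolyl hydroxylase genes encode the catalytic subunits of collagen prolyl 4-hydroxylase, and they did not separate by group. P4ha1 (1452094_at) had 1738 and 999 in VEGFD arrays, against 1561 and 1132 in Apex arrays. Replicate 1 was the higher array of each group, and the log2 change was -0.01 ± 0.34 (95% interval -0.88 to 0.85, limma adjusted p = 0.994). Its dimmer probe set, 1426519_at, had 815 and 414 in VEGFD arrays, against 551 and 319 in Apex arrays, a log2 change of 0.45 with the same order of replicates.

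P4ha2 (1417149_at) had 1995 and 631 in VEGFD arrays, against 2020 and 1395 in Apex arrays. VEGFD replicate 2 was the lowest array and VEGFD replicate 1 matched the higher Apex array closely. The log2 change of -0.57 ± 0.56 (95% interval -1.99 to 0.85, limma adjusted p = 0.845) rested on VEGFD replicate 2: leaving that array out gave 0.25, and leaving out the first VEGFD array gave -1.39. That last value had the smallest limma adjusted p of any of the 9 genes under any setting tried, 0.0649.

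Serpinh1 encodes the chaperone HSP47. Probe set 1450843_a_at had 3849 and 4931 in VEGFD arrays, against 4118 and 3362 in Apex arrays. The groups overlapped, VEGFD replicate 2 was the highest array, and the log2 change was 0.23 ± 0.24 (95% interval -0.37 to 0.82, limma adjusted p = 0.855). Leaving out VEGFD replicate 2 gave 0.049, Apex replicate 2 gave 0.081, Apex replicate 1 gave 0.37 and VEGFD replicate 1 gave 0.40. The other probe set, 1456733_x_at, had a log2 change of 0.14 and the same highest array, and its name suffix marks probes that may also bind other transcripts.

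**Figure D2:**
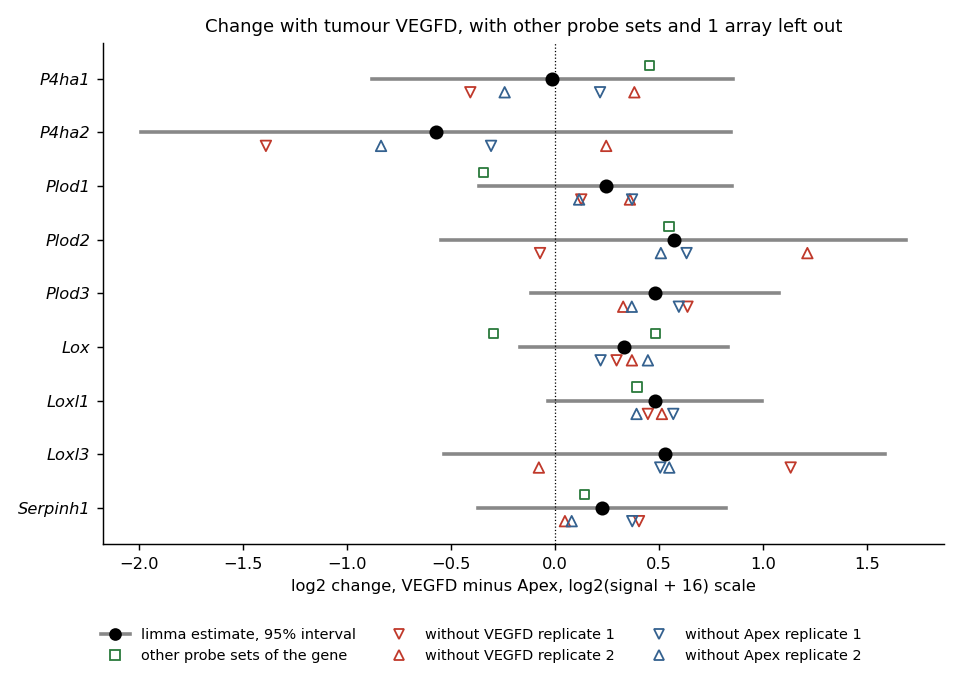
Log2 change, VEGFD minus Apex, of each gene on the log2(signal + 16) scale: black points are limma estimates with 95% intervals (grey lines), open squares other probe sets, and open triangles the estimate with 1 array left out. Every interval spans 0, and the estimates of P4ha1, P4ha2, Plod2 and Loxl3 change sign with the array left out.

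The arrays of 1 group differed from each other more than the group means did for 6 of the 9 genes, against 76.1% of all tested genes. VEGFD arrays lay at least 2-fold apart for 3 genes (P4ha2, Plod2 and Loxl3), against 12.1% of all tested genes, and Apex arrays for none, against 4.98%. P4ha1, P4ha2, Plod1 and Plod2 were among 5 genes with less signal in replicate 2 than in replicate 1 of both groups, a pattern of 28.8% of all tested genes, and the fifth was Loxl1.

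The log2 difference of VEGFD replicate 2 minus VEGFD replicate 1 was -1.64 for P4ha2, -1.29 for Plod2 and -0.79 for P4ha1, whereas it was 1.21 for Loxl3, 0.36 for Serpinh1 and 0.31 for Plod3. Genes of the response to low oxygen ran with the first 3. Of 16 tested genes of that list, 15 had less signal in VEGFD replicate 2 than in VEGFD replicate 1, against 52.6% of all tested genes, with a median difference of -1.25 against -0.04 over all tested genes. Ndrg1, a stress-induced gene, had 1050 and 84.1 in VEGFD arrays, against 993 and 781 in Apex arrays. Pdk1, which encodes a kinase that restrains pyruvate entry into mitochondria, had 325 and 46.1 in VEGFD arrays, against 334 and 485 in Apex arrays. Bnip3, a mitophagy gene chosen after its values were seen, had 3020 and 546 in VEGFD arrays, against 1974 and 1292 in Apex arrays. All 3 had less signal in VEGFD replicate 2 than on any other array. The exception was the glucose transporter gene Slc2a1, also chosen after its values were seen, with 1878 and 2086 in VEGFD arrays and 844 and 670 in Apex arrays. Between groups 0 of the 16 genes passed in limma and 1, Slc2a1, had an unadjusted p under 0.05, at 1.38 ± 0.23 on the log2 scale (adjusted p = 0.641). The log2 changes of Ndrg1 and Pdk1 were -1.46 ± 1.07 and -1.53 ± 0.80. With VEGFD replicate 1 left out, so that VEGFD replicate 2 stood alone for its group, they were -3.16 and -2.75. With VEGFD replicate 2 left out instead, they were 0.25 and -0.30. Ndrg1 and Pdk1 passed with values taken relative to collagen I and III, at -1.72 (limma adjusted p = 0.00605) and -1.79 (0.00473). In that setting 226 of all 11677 tested genes (1.94%) passed, against 0 without it. It takes 1 value per array from every gene, so all genes share the error of that value. For Lox the difference between the VEGFD arrays was -0.07. The part of the hypoxia genes in the values of P4ha1, P4ha2 and Plod2 was not tested.

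**Figure D3:**
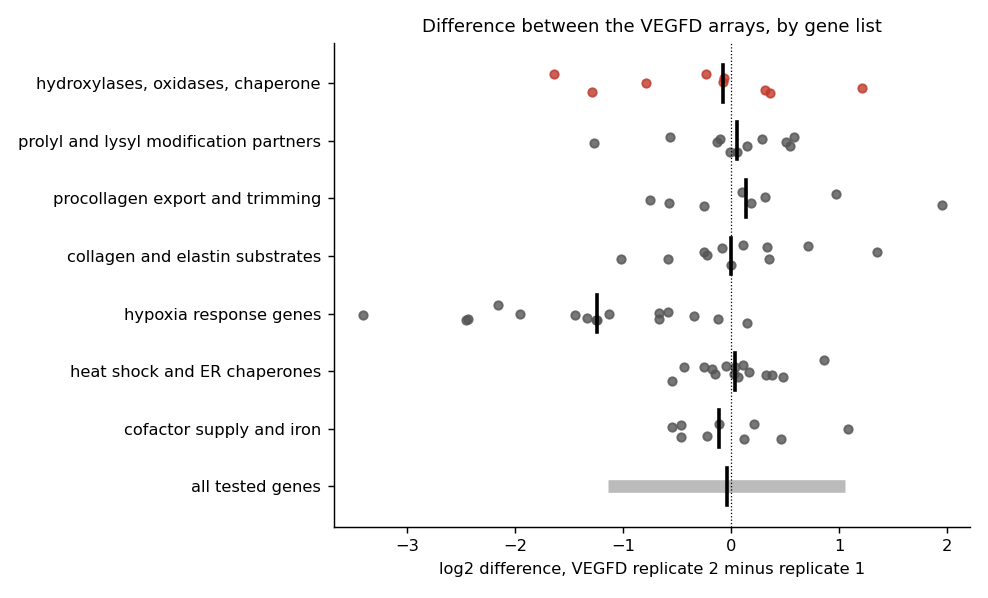
Log2 difference between the VEGFD arrays (replicate 2 minus replicate 1) for each tested gene of the set (red) and of 6 related lists (grey points), with medians as black bars and the 5th to 95th percentile of all tested genes as a grey band from -1.14 to 1.05. Hypoxia genes lie almost wholly below 0, and P4ha2, Plod2 and P4ha1 are the lowest of the set.

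Markers of cell types also differed between arrays, and those of endothelium did not move as one. Pecam1, Cdh5, Erg and Tie1 lay below a signal of 25.3 on both VEGFD arrays and Apex replicate 1. Eng, Kdr and Egfl7, of the same list, lay above it on every array. Of 10 pan-endothelial markers, 6 and 3 exceeded a signal of 25.3 in VEGFD arrays, against 5 and 10 in Apex arrays, with summed signals of 1184 and 457 against 725 and 4312. Pecam1, which encodes CD31, had 3.25 and 2.22 in VEGFD arrays and 2.92 and 141 in Apex arrays. Cdh5, which encodes VE-cadherin and was chosen after its values were seen, had 4.23 and 3.11 in VEGFD arrays and 13.0 and 146 in Apex arrays. The lymphatic transcription factor gene Prox1 did not exceed 11.6 with its brightest probe set, while Pdpn, which encodes podoplanin, had 1237 and 1715 in VEGFD arrays and 963 and 1622 in Apex arrays. Of 9 fibroblast markers measured, 9 and 8 exceeded 25.3 in VEGFD arrays and 8 and 8 in Apex arrays, with summed signals of 22436 and 20429 against 23147 and 22177. The single genes of that list were less even than the sum. The proteoglycan gene Dcn had 939 and 405 in VEGFD arrays, against 695 and 551 in Apex arrays. Dpt, the dermatopontin gene, had 204 and 168 in VEGFD arrays, against 2725 and 2407 in Apex arrays. Its log2 change of -3.68 ± 0.23 had the smallest limma adjusted p of all tested genes, 0.115, and ran from -3.80 to -3.55 with 1 array left out, with an adjusted p of 0.0215 under the replicate block. Of the 8 tested fibroblast markers, Col6a3 was the other one lower without overlap, with 130 and 1829 in VEGFD arrays and 2671 and 3700 in Apex arrays. Its log2 change of -2.60 became -4.43 when VEGFD replicate 2 was omitted and -0.78 when VEGFD replicate 1 was. Mfap5 was the one higher without overlap, with 5741 and 5476 in VEGFD arrays and 4144 and 2366 in Apex arrays. Dpt, Col6a3 and Mfap5 were chosen after their values were seen. Adipocyte markers were lower in VEGFD arrays for all 5 that were tested, each without overlap, against 21.8% of all tested genes. The 10 smooth muscle and pericyte markers summed to 18632 in VEGFD replicate 2, against 9483 in VEGFD replicate 1 and 7666 and 8993 in Apex arrays, but the list did not move as one. Of its 9 tested genes, 6 had more signal in VEGFD replicate 2 than in VEGFD replicate 1 and 3 had less, and 3 were higher and 2 lower in VEGFD arrays without overlap, against 16.6% and 21.8% of all tested genes. Tagln, a contractile gene, had the largest log2 change of the list at 2.34 (1.46 to 3.22 with 1 array left out), with 1632 and 5553 in VEGFD arrays and 454 and 746 in Apex arrays. The 2 lower genes, chosen after their values were seen, were Des and Pdgfrb. Des, which encodes desmin, had a log2 change of -1.33 (-2.01 to -0.65 with 1 array left out). It was dim, with 10.1 and 51.1 in VEGFD arrays and 85.0 and 94.0 in Apex arrays. Averaging its probe sets gave -0.67, a pseudocount of 64 gave -0.73 and a pseudocount of 1 gave -1.91. The pericyte receptor gene Pdgfrb had a log2 change of -0.97 (-1.33 to -0.60 with 1 array left out). Of 9 leukocyte markers, 3 and 3 exceeded 25.3 in VEGFD arrays and 3 and 4 in Apex arrays. VEGFD replicate 2 was thus the highest array for the smooth muscle sum, Loxl3, Serpinh1 and Plod3, and the part of those cells in these values was not tested. In such samples a smaller number of cells of a type and less RNA per cell cannot be told apart.

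The collagens on which these enzymes act showed no common direction. Col1a1 and Col1a2 encode the chains of collagen I and Col3a1 that of collagen III. Col1a2 had 6122 and 6623 in VEGFD arrays, against 5555 and 6846 in Apex arrays, and Col3a1 had 5400 and 4545 against 5360 and 5070. Col1a1 was uneven, with 2034 and 3342 in VEGFD arrays and 2491 and 862 in Apex arrays, and its log2 change of 0.82 ± 0.55 was 0.066 with Apex replicate 2 left out. Omitting VEGFD replicate 2 gave 0.47, and Apex replicate 1 gave 1.58. Of 11 tested collagen and elastin genes, 0 passed in limma and 1 had an unadjusted p under 0.05, against 5.7% of all tested genes. Without overlap 2 were higher and 1 lower, against 16.6% and 21.8%. The largest estimates belonged to chains of collagen V. Col5a2 had 6253 and 6236 in VEGFD arrays, against 4067 and 2859 in Apex arrays, with a log2 change of 0.87 ± 0.24. Col5a3 had 45.8 and 142 in VEGFD arrays, against 198 and 222 in Apex arrays, with a log2 change of -1.19 ± 0.48. Omitting VEGFD replicate 1 gave -0.52, VEGFD replicate 2 gave -1.87, and averaging probe sets gave -0.69. Values were also set relative to the mean log2 value of Col1a1, Col1a2 and Col3a1 on each array. Plod3 alone of the 9 genes stayed apart without overlap, at 0.22. In that setting 554 of all 11677 tested genes were higher and 3595 lower without overlap. Lox was then at 0.07, Loxl1 at 0.22, Serpinh1 at -0.04 and Plod1 at -0.02. This reference moved every estimate by -0.27, and rested mainly on Col1a1 at 0.82, against 0.05 for Col1a2 and -0.07 for Col3a1. It thus rested largely on the low Col1a1 signal of Apex replicate 2.

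Partner genes of the set were near 0 in most cases. Of 11 tested partners of prolyl and lysyl modification, 0 passed in limma and 1 had an unadjusted p under 0.05, against 5.7% of all tested genes, with a median of -0.02. That gene was P3h1, which encodes a prolyl 3-hydroxylase, with 197 and 294 in VEGFD arrays, against 154 and 90.5 in Apex arrays, a log2 change of 0.93 ± 0.35. Choosing the probe set by mean log2 value gave 0.49, and omitting Apex replicate 2 gave 0.60. Colgalt1, which encodes a galactosyltransferase of hydroxylysine, had 916 and 1311 in VEGFD arrays and 1017 and 616 in Apex arrays, a log2 change of 0.46 ± 0.34. Omitting 1 array gave 0.11 (Apex replicate 2), 0.21 (VEGFD replicate 2), 0.72 (VEGFD replicate 1) and 0.81 (Apex replicate 1). Of 8 tested genes of procollagen export and trimming, 0 passed, 0 had an unadjusted p under 0.05 and 3 were higher without overlap, against 16.6% of all tested genes, with a median of 0.38. Tll1, which encodes a tolloid-like procollagen protease, had 169 and 695 in VEGFD arrays, against 85.6 and 152 in Apex arrays, a log2 change of 1.47 ± 0.67. Leaving out VEGFD replicate 2 gave 0.50, and leaving out VEGFD replicate 1 gave 2.44 with a limma adjusted p of 0.0214. The kinesin gene Kif26b had 77.2 and 166 in VEGFD arrays, against 17.9 and 74.9 in Apex arrays, a log2 change of 1.23 ± 0.58. Omitting Apex replicate 1 gave 0.52, VEGFD replicate 2 gave 0.75 and Apex replicate 2 gave 1.94, and a pseudocount of 64 gave 0.76.

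Chaperone genes beside Serpinh1, a gene known to be induced by heat shock factor, were mostly slightly above 0. Of 15 tested heat shock and endoplasmic reticulum chaperones, 0 passed in limma and 2 had an unadjusted p under 0.05, against 5.7% of all tested genes. Estimates were above 0 for 11 of the 15, against 46.4% of all tested genes, with a median of 0.14 against -0.04. Without overlap, 8 were higher and 3 lower, against 16.6% and 21.8%. The largest estimates were those of Hspa1b and Hspa1a, near-identical HSP70 genes whose probe sets may not tell them apart. Hspa1b had 132 and 170 in VEGFD arrays, against 285 and 482 in Apex arrays, a log2 change of -1.22 ± 0.33, which passed relative to collagen only (-1.49, limma adjusted p = 0.0426). Hspa1a had 39.9 and 30.8 in VEGFD arrays, against 48.5 and 87.8 in Apex arrays, a log2 change of -0.68 ± 0.34, and -1.02 to -0.34 with 1 array left out.

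**Figure D4:**
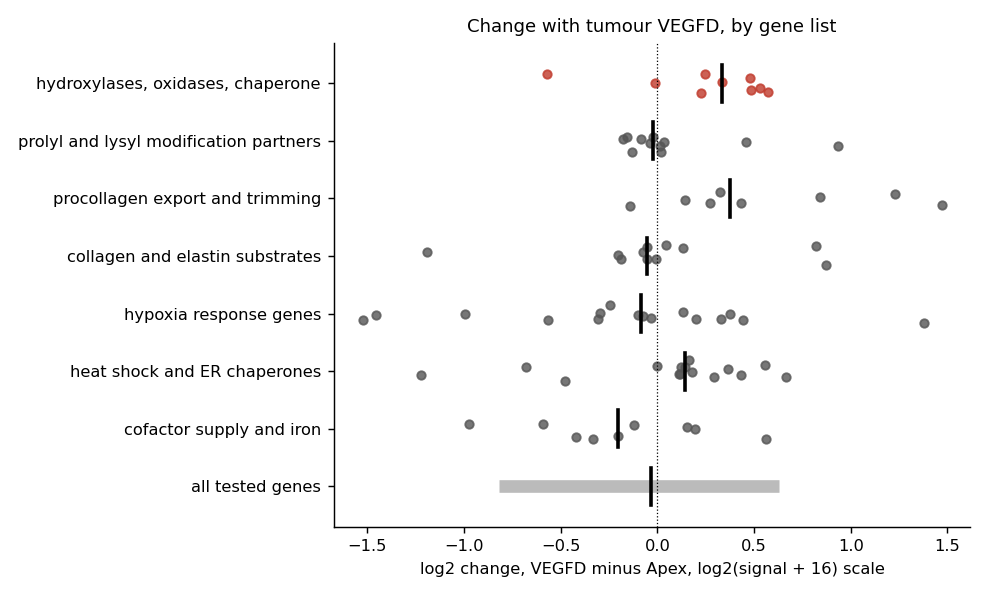
Log2 change, VEGFD minus Apex, of each tested gene of the set (red) and of 6 related lists (grey points) on the log2(signal + 16) scale, with medians as black bars and the 5th to 95th percentile of all tested genes as a grey band from -0.82 to 0.63. The 9 genes lie between -0.57 and 0.57, within that band.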

How the data were processed

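Signals of 45101 probe sets on 4 Affymetrix arrays were used, 2 per group. The deposited values are linear intensity, 1 per probe set, and their algorithm is one that no source used here gives. In the deposited intensity values each array had a mean of 150 after trimming 2% of probe sets at each end. Biotin labelling followed the one-cycle procedure, per the labels' protocols. Median signals were 26.3 and 23.8 in VEGFD arrays and 27.0 and 30.4 in Apex arrays. The number of arrays limits the precision, and p-values measure the spread between arrays labelled as biological replicates.

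Of the non-control probe sets, 34945 had 1 gene symbol, 932 several and 9160 were unnamed here. Values were taken as log2(signal + 16), which understates changes of dim genes. Genes were tested when the mean of their brightest probe set reached the median over non-control probe sets, a log2 value of 5.37, 11677 of 18193. Limma 3.58.1 in R 4.3.3 (lmFit, eBayes with an intensity trend, two-sided, Benjamini-Hochberg, threshold 0.05) compared the groups and was tested on simulated data. An exact permutation test of 2 against 2 arrays cannot go below p = 0.333, so non-overlap is a description.

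The genes, lists and rules were chosen with earlier results of these data known. Named by rule were the set itself, Col1a1, Col1a2, Col3a1, the 2 largest changes of each related list where none passed, 5 cell markers, and the 3 genes nearest in pattern to the 3 widest-ranging members. Marker lists for adipocytes and epithelium were also summed: adipocyte markers gave 3853 and 3127 in VEGFD arrays and 6361 and 8120 in Apex arrays, epithelial markers 647 and 231 against 698 and 968, lymphatic markers 2046 and 2625 against 1959 and 2794, and leukocyte markers 476 and 681 against 619 and 622. Alternatives covered scaling, pseudocount, filter, probe set choice, intensity trend, a replicate block and leaving out each array.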

Additional observations from a re-analysis of the deposited data

How the results depend on the processing

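None of the 9 genes passed limma's adjusted p of 0.05 under any of the 15 alternatives, and the signs held in 125 of 135 comparisons. Many of these signs could not turn, because the filter, intensity trend and replicate block settings leave a gene's estimate unchanged. Choosing the probe set by mean log2 value also gave the same estimates for all 9 genes, as did averaging for genes with 1 probe set. Over all tested genes, 0 passed on 4 arrays, 226 passed relative to collagen I and III (27 higher, 199 lower) and 6 with the replicate number as a block, and 0 to 372 passed with 1 array left out, with 372 when VEGFD replicate 1 was left out and 4 when VEGFD replicate 2 was. The lone array of a group is then assumed to vary like the others. Relative to collagen, 1 value per array is taken from every gene, so all genes share its error. For the 70 tested genes of the related lists the counts were 0, 3 relative to collagen (Ndrg1, Pdk1 and Hspa1b), and 0 to 4 with 1 array left out, the 4 being Ndrg1, Pdk1, Slc2a1 and Tll1 without VEGFD replicate 1. Of the 9 genes, 3 lay apart without overlap, with 1 relative to collagen and 4 to 8 with 1 array left out. Leaving out an array makes non-overlap easier to meet. Over all 11677 tested genes, 1941 were higher and 2549 lower without overlap on 4 arrays, and 554 and 3595 relative to collagen. With 1 array left out, 3190 to 4129 were higher and 3833 to 4969 lower. The replicate numbers share only a label: the deviations of same-numbered arrays correlated at r = 0.20 across genes, and the smallest adjusted p of the 9 genes under the replicate block was 0.657 (Loxl1).

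Signs turned as follows. Median centring of the arrays gave 0.11 for P4ha1, 0.050 for Col3a1 and 0.12 for Dcn. Averaging probe sets gave 0.22 for P4ha1 and -0.049 for Plod1. Relative to collagen, Plod1 was -0.021, Serpinh1 -0.038, Col1a2 -0.22 and Pdpn -0.047, and a pseudocount of 64 gave 0.0057 for Dcn. With 1 array left out, P4ha1 ran from -0.41 to 0.38, P4ha2 from -1.39 to 0.25, Plod2 from -0.071 to 1.21 and Loxl3 from -0.077 to 1.13. For the other named genes these ranges were -0.10 to 0.20 for Col1a2, -0.20 to 0.051 for Col3a1, -0.59 to 0.59 for Dcn, -0.15 to 0.59 for Pdpn, -3.16 to 0.25 for Ndrg1 and -1.52 to 0.91 for Bnip3. They were -1.42 to 0.27 for Gda, -1.25 to 0.29 for Lmbr1, -1.34 to 0.39 for Tchh, -0.074 to 1.31 for Ier3, -0.053 to 1.04 for Ghr, -0.037 to 1.12 for Tbrg4, -0.047 to 1.19 for Haus7 and -0.12 to 1.13 for Nolc1. The arrays left out show which array each sign rests on. Median centring moved every estimate by 0.12 and the collagen setting every estimate by -0.27. Each thereby turned estimates of the opposite sign and smaller size. Averaging brought in the other probe sets, at 0.45 for P4ha1 and -0.34 for Plod1. Dcn, which turned with the pseudocount, had stood at -0.0018.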

Other observations

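Of 9 tested genes for the supply of the cofactors of these enzymes, 0 passed in limma and 2 had an unadjusted p under 0.05, against 5.7% of all tested genes. These values are RNA signals, and the cofactors themselves were not measured. Without overlap 1 was higher and 5 were lower, against 16.6% and 21.8% of all tested genes, and the median log2 change was -0.20. Idh1 encodes the cytosolic enzyme that makes 2-oxoglutarate, a cosubstrate of the hydroxylases, and had 1247 and 1447 in VEGFD arrays, against 2465 and 2859 in Apex arrays. Its log2 change was -0.97 ± 0.22 (limma adjusted p = 0.767), and -1.08 to -0.87 with 1 array left out. Atp7a encodes the pump that loads copper onto secreted enzymes such as the lysyl oxidases, and had 484 and 446 in VEGFD arrays, against 702 and 715 in Apex arrays. Its log2 change was -0.59 ± 0.21 (limma adjusted p = 0.823), opposite in sign to those of Lox and Loxl1.

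The genes most like the 3 widest-ranging members were found by the root mean square difference of centred log2 values over the 4 arrays. Gda, a guanine deaminase gene, came nearest to P4ha2 with 2464 and 749 in VEGFD arrays and 2487 and 1667 in Apex arrays, a difference of 0.03 on the log2 scale, before Tchh and Lmbr1 at 0.06 each. Ier3, an early response gene, came nearest to Plod2 with 1074 and 401 in VEGFD arrays and 409 and 437 in Apex arrays (0.09), before Tmem71 (0.10) and the growth hormone receptor gene Ghr (0.12). Tbrg4 came nearest to Loxl3 with 146 and 344 in VEGFD arrays and 146 and 153 in Apex arrays (0.02), before Haus7 (0.02) and Nolc1 (0.03). With 4 arrays and 11677 genes, close matches of this kind are found for many patterns.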
